A study of Mus musculus with 6 samples.

Results

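Keratins, Spint inhibitors and other epithelial genes were followed in cultured mouse sarcoma cells with and without a knockout of Setd1a, which encodes a histone H3 lysine 4 methyltransferase. The set held 10 of the 55471 genes in the deposited table, chosen by name with earlier results of these data known. They were the keratins Krt7, Krt8, Krt18 and Krt19, the adhesion genes Epcam and Cdh1 and the protease inhibitors Spint1 and Spint2. The others were St14, the target protease of these inhibitors, and the cornified envelope gene Sprr1a. RNA sequencing counted transcripts in 6 libraries of a mouse undifferentiated pleomorphic sarcoma (UPS) cell line labelled as metastatic. In 3 of them the cells were labelled with the genotype Setd1a Knock Out (KO). The other 3 were labelled as control, with the genotype WT. The titles carry a further tag, a number in the KO libraries and AAV2 in the control libraries, whose meaning the labels do not give, so whatever it marks and the knockout cannot be told apart. All cells were grown in DMEM with 10% fetal bovine serum and antibiotics. The labels do not say whether the KO cells were 1 clone, nor do they tie each replicate to a culture of its own, so the tests weigh each difference against the spread among these libraries alone, which may be technical.

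Keratins are the intermediate filament proteins of epithelia. They assemble as obligate pairs of a type I chain (Krt18, Krt19) and a type II chain (Krt7, Krt8), and Krt8 with Krt18 is the pair of simple epithelia. Spint1 and Spint2 encode Kunitz-type inhibitors, also called HAI-1 and HAI-2, that sit in the membrane of epithelial cells and restrain serine proteases such as matriptase, the product of St14. Mesenchymal cells such as sarcoma cells use vimentin as their main intermediate filament, and hold Cdh1, the gene of E-cadherin, under repressors of the Zeb, Snail and Twist families.

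Promoter sequences are shown for Sprr1a, which had the largest rise among the 7 tested genes, for the inhibitor gene Spint2, and for the keratin pair Krt8 and Krt18, which passed the test in neither direction. Each runs 5′ to 3′ on the gene's own strand over 300 bases of GRCm38.p6, from 250 bases before the RefSeq start to 50 after it. The windows are chr3:92485832-92486131 (minus strand) for Sprr1a, chr7:29281928-29282227 (minus strand) for Spint2, chr15:102004293-102004592 (minus strand) for Krt8 and chr15:102027966-102028265 (plus strand) for Krt18. Capitals mark 4 motifs searched on both strands: the AP-1 site TGANTCA, the E-box CACCTG, the TATA box TATAAA and the GC box GGGCGG.
Sprr1a: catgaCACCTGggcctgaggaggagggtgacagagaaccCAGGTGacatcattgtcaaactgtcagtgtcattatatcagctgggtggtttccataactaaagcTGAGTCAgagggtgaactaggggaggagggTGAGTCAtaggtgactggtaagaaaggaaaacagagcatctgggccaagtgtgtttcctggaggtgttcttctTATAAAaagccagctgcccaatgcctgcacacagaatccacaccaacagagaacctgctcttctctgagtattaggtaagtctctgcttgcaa
Spint2: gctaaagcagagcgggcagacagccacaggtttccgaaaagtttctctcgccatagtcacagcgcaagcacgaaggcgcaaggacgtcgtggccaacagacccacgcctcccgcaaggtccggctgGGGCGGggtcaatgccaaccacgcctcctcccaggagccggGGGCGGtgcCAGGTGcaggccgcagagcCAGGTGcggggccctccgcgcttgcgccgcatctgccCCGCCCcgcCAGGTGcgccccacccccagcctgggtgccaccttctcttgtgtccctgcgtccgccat
Krt8: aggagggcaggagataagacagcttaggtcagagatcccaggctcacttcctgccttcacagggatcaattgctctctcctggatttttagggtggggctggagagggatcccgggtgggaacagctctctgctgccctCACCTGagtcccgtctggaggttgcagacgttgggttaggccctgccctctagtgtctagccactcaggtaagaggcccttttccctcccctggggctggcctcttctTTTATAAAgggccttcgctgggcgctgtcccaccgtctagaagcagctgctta
Krt18: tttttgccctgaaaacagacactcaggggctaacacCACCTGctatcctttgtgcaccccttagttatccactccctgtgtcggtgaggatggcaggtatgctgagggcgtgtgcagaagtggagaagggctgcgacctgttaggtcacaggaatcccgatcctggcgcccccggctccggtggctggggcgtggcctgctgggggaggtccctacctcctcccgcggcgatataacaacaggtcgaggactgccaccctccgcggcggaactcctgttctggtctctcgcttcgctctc

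The Sprr1a window held 2 AP-1 matches, starting at -146 and -116 from the RefSeq start, a TATA box at -43 and 2 E-boxes, and it had 0 CpG dinucleotides. The Spint2 window held 3 E-boxes, 3 GC boxes and 26 CpG, more CpG than 83.1% of all promoters in the table. Krt8 had 6 CpG, an E-box and the TATA box letters on both strands with overlap, and Krt18 had 17 CpG and 1 E-box. The TATA box letters of Krt8 start at -3 and -1 and so run across the RefSeq start, unlike those of Sprr1a. Of the 32851 promoters searched, 7.81% held the AP-1 letters, 20.2% the E-box, 13.6% the TATA box and 35.7% the GC box. The matches describe the letters of these windows and not binding. RefSeq promoters were matched for 7 of the 10 genes, and not for Krt19, Cdh1 and St14.

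Total counts per library lay between 17749533 and 18272622. The Setd1a transcript stood at 53.2, 68.7 and 56.3 CPM (read counts scaled to library size) in the KO libraries, against 71.0, 75.3 and 73.5 CPM in the control libraries. The KO libraries were lower in every case, and edgeR without pairing gave -0.30 ± 0.12 (SE) on the log2 scale (adjusted p = 0.426, or 0.0913 with pairing). Exons of other genes overlap 52.3% of its exonic bases, so its level is uncertain. The counts therefore do not by themselves show the knockout, and KO stands for the label. In edgeR's quasi-likelihood test without pairing, 0 of 13044 genes passed an adjusted p of 0.05 in either direction (0% higher, 0% lower), and 718 higher (5.5%) and 588 lower (4.51%) did at 0.05 before adjustment. The paired test, which adds the replicate number as a block, called 187 genes higher (1.43% of those tested) and 111 lower (0.851%). Changes are given as KO over control on the log2 scale, with Benjamini-Hochberg adjustment over all 13044 genes.

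Of the 10 epithelial genes, 7 passed the low-count filter and were tested, each of them through libraries of both groups. In the paired edgeR test 3 of the 7, Sprr1a, Spint2 and Krt19, rose in the KO libraries and 0 fell, beside 1.43% and 0.851% over all genes. Because the set was chosen with earlier results of these data known, shares and medians beside those of all genes describe it and do not test it. Without pairing, edgeR called 0 of the 7 in either direction, while 4 reached 0.05 before adjustment, all higher. DESeq2 without pairing called 1 of them, Sprr1a, and limma-voom without pairing called 0. Without pair 3 none of the 3 genes passed (adjusted p = 0.0627 for Sprr1a, 0.0801 for Spint2 and 0.0888 for Krt19), and neither did any of the 13100 genes tested there. The log2 changes without pair 3 were 1.65 for Sprr1a, 1.35 for Spint2 and 0.85 for Krt19, beside 1.71, 1.24 and 0.84 with all pairs. Without pair 2 only Sprr1a passed (adjusted p = 0.00184). Without pair 1, 4 of the 7 were called, with Spint1 added (adjusted p = 0.00381). The median log2 change of the 7 was 0.84 in the paired test, beside -0.00057 over all genes tested.

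**Figure D1:**
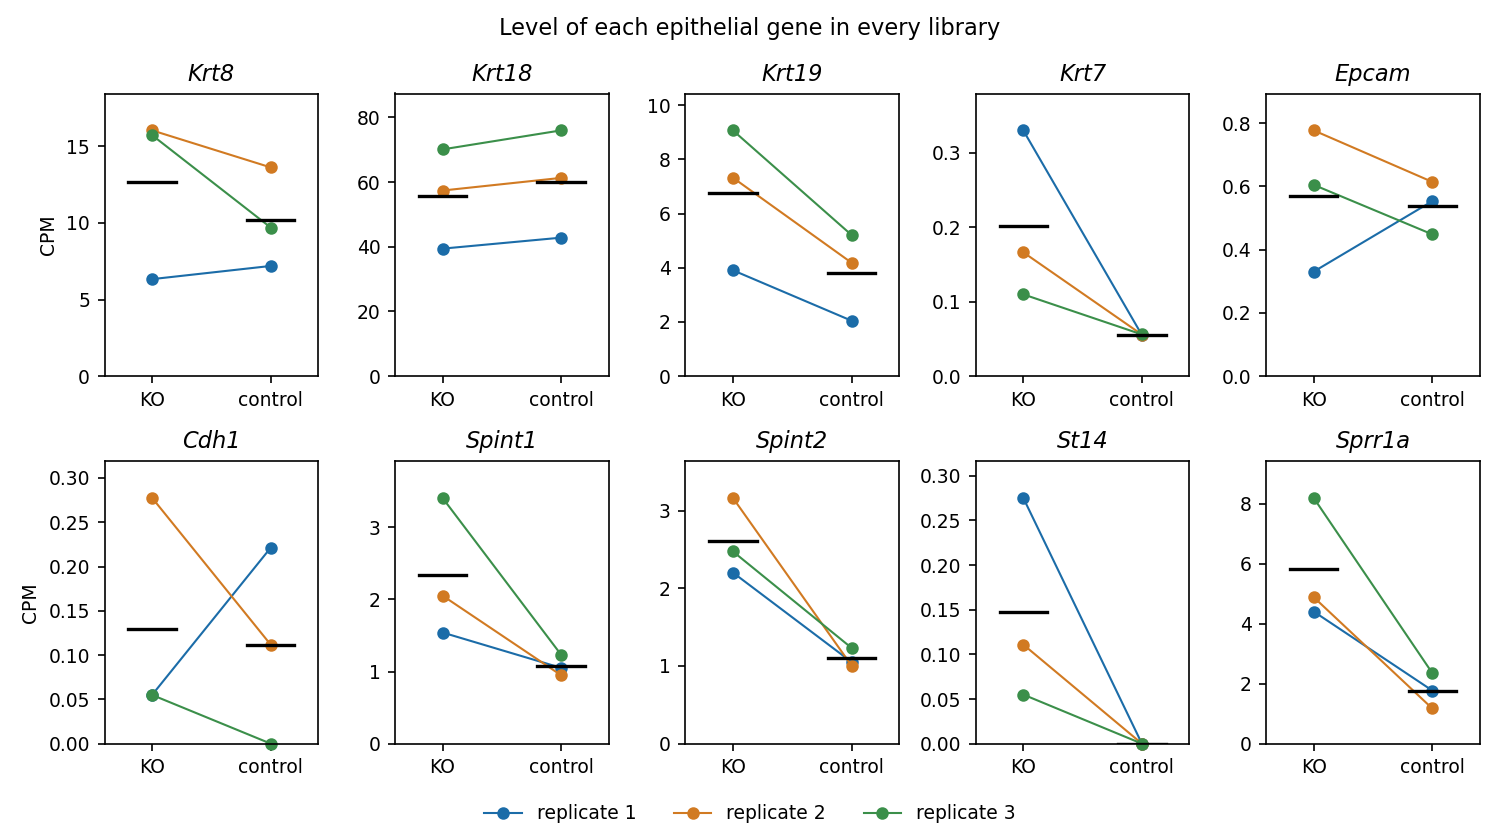
CPM of each of the 10 epithelial genes (vertical axis, from 0) in the KO libraries (left) and control libraries (right), with lines joining libraries of the same replicate number and black bars at the group means. Sprr1a, Spint1 and Spint2 lay higher in every KO library than in any control library, while Krt18 differed more between replicate numbers than between groups.

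The keratin pair Krt8 and Krt18 did not pass the test in either direction. Krt18 (ENSMUSG00000023043, chromosome 15, 102028180 to 102032027, plus strand), the type I chain, stood at 39.4, 57.4 and 70.1 CPM in KO replicates 1, 2 and 3, against 42.8, 61.3 and 76.0 CPM in control replicates 1, 2 and 3. The groups overlapped almost fully, and each KO library lay a little below the control library of its number. The paired edgeR test gave -0.11 ± 0.08 (SE) on the log2 scale (adjusted p = 0.513). Over all genes tested, 21.6% were lower in the KO library of all 3 pairs, as Krt18 was. The pair ratios of Krt18 were -0.12, -0.10 and -0.12 on the log2 scale, the narrowest range among the 7 tested epithelial genes.

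Krt8 (ENSMUSG00000049382, chromosome 15, 101996698 to 102004482, minus strand), the type II partner, stood at 6.33, 16.04 and 15.7 CPM in the KO libraries, against 7.19, 13.6 and 9.70 CPM in the control libraries. The groups overlapped, and the KO library was lower than its control in pair 1 and higher in pairs 2 and 3, with log2 ratios of -0.18, 0.24 and 0.70. The paired edgeR test gave 0.27 ± 0.16 (SE) on the log2 scale (adjusted p = 0.401). The antisense-strand gene Gm36026 covers 5.16% of the exonic bases of Krt8, and held 2 counts over the KO libraries and 8 over the control libraries. Krt8 and Krt18 are neighbours that point away from each other, with 23697 bases between them.

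Krt19, the smallest type I keratin, which can pair with Krt8 in simple epithelia, rose 1.79-fold. Krt19 (ENSMUSG00000020911, chromosome 11, 100140810 to 100148665, minus strand) stood at 3.91, 7.33 and 9.07 CPM in the KO libraries, against 2.05, 4.19 and 5.21 CPM in the control libraries. The groups overlapped, because KO replicate 1 lay below control replicates 2 and 3, yet each KO library was above the control library of its own number. The log2 ratios were 0.93, 0.81 and 0.80 in pairs 1, 2 and 3, the paired change was 0.84 ± 0.15 (SE) and the adjusted p was 0.0327 in edgeR. Without pairing the log2 change was 0.83 ± 0.36 (SE, adjusted p = 0.485).

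Krt7, a type II keratin of ducts and simple epithelia, was near the floor and was not tested. Krt7 (ENSMUSG00000023039, chromosome 15, 101411043 to 101430313) had 6, 3 and 2 counts in the KO libraries, against 1, 1 and 1 in the control libraries. The summed counts of 11 and 3 gave a ratio of 3.63 (95% exact interval 0.959 to 20.3, counting error only), an interval that includes 1.

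Per kilobase of exon, Krt18 was the highest of the 10 genes in every library, at 38.7 ± 10.7 CPM per kb in the KO libraries and 41.8 ± 11.6 in the control libraries (SD, n = 3). Sprr1a followed in the KO libraries at 7.23 ± 2.56 CPM per kb, with Krt8 at 6.49 ± 2.82 and Krt19 at 3.65 ± 1.42, and of these neighbours Sprr1a overlapped Krt8 and Krt8 overlapped Krt19, while every KO library had more Sprr1a than any had Krt19. In the control libraries the order was Krt8 at 5.19 ± 1.66, Sprr1a at 2.19 ± 0.73 and Krt19 at 2.06 ± 0.87 CPM per kb. There Sprr1a and Krt19 did not differ beyond their spread, and Krt8 lay above both in every library. Spint1, Spint2 and Epcam formed a lower tier in both groups, and Krt7, Cdh1 and St14 lay under 0.03 CPM per kb on average. The lengths join the exons of all annotated transcripts of a gene, so an order between genes depends also on that choice. By comparison the vimentin gene Vim stood at 1145 ± 73.1 CPM per kb in the KO libraries and 1296 ± 98.5 in the control libraries.

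**Figure D2:**
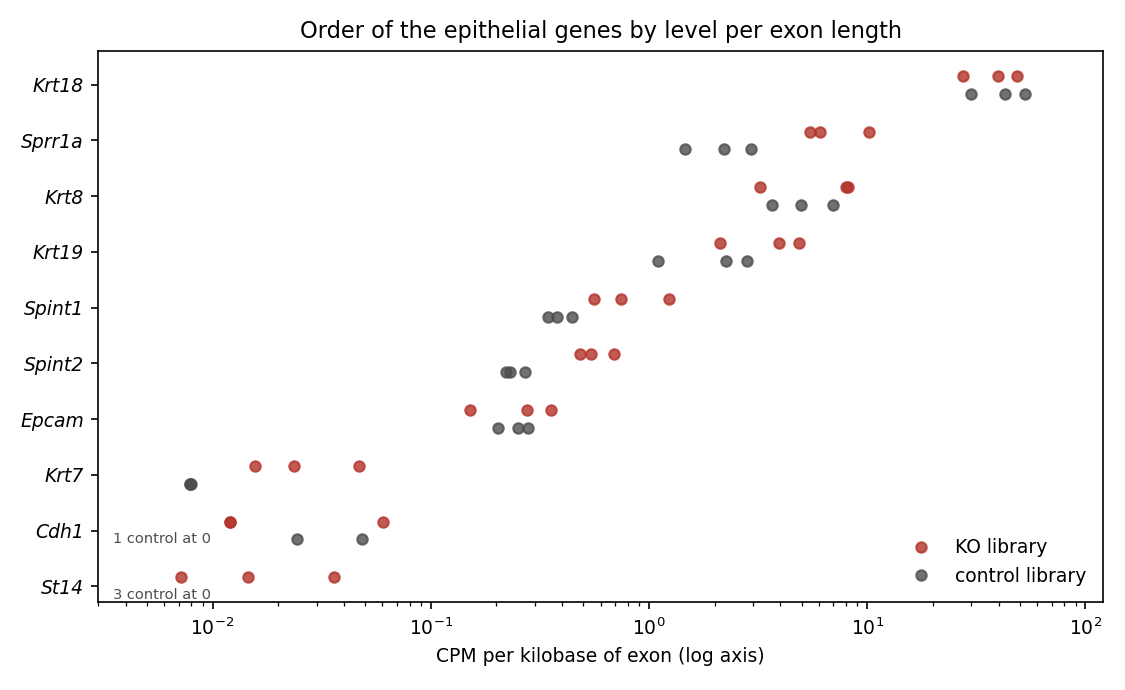
CPM per kilobase of exon (log axis) of the 10 epithelial genes in each KO library (upper points) and control library (lower points), ordered by the KO mean. Krt18 was highest at 38.7 in the KO libraries and 41.8 in the control libraries on average, and libraries with a count of 0 are written as text.

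The type I chain Krt18 exceeded its type II partner Krt8 in every library. The ratio of Krt18 to Krt8 per kb was 8.48, 4.88 and 6.07 in the KO libraries, against 8.11, 6.13 and 10.7 in the control libraries, and the groups overlapped. The ratio of Krt18 to Krt19 per kb was 13.0, 10.1 and 9.98 in the KO libraries, against 27.0, 18.9 and 18.8 in the control libraries, with no overlap. Among all 49 keratin genes in the table, 22 had 0 counts in every library, and Krt8, Krt18 and Krt19 together made up 85.1% ± 3.88 of the summed keratin level per kb in the KO libraries and 84.5% ± 4.87 in the control libraries (SD, n = 3). Krt19 alone took 6.24% ± 0.93 in the KO libraries and 3.45% ± 0.81 in the control libraries. In CPM, without division by exonic length, Krt80, a keratin outside the set, lay above Krt8 and Krt19 in every library. Krt80 averaged 24.6 CPM in the KO libraries and 16.1 CPM in the control libraries.

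Both Kunitz inhibitor genes were higher in every KO library than in any control library, a lack of overlap that 7.49% of all tested genes showed in this direction. With Sprr1a they were 3 of the 7 tested epithelial genes, and 0 of the 7 lay below every control library, as 7.77% of all genes did. Spint2 (ENSMUSG00000074227, chromosome 7, 29256323 to 29281912, minus strand) stood at 2.20, 3.16 and 2.47 CPM in the KO libraries, against 1.05, 1.005 and 1.23 CPM in the control libraries, from 142 and 59 counts in all. It rose 2.36-fold in the paired edgeR test (log2 change 1.24 ± 0.24 SE, adjusted p = 0.0363). Without pairing the log2 change was 1.25 ± 0.26 (SE, adjusted p = 0.180).

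Spint1 (ENSMUSG00000027315, chromosome 2, 119237362 to 119249527, plus strand) stood at 1.54, 2.05 and 3.41 CPM in the KO libraries, against 1.05, 0.95 and 1.23 CPM in the control libraries. The 3 pair ratios were 0.55, 1.11 and 1.47 on the log2 scale, so the size differed between pairs although the direction did not. Its paired log2 change was 1.08 ± 0.26 (SE), and the adjusted p of 0.0631 missed the threshold. Per kb, Spint1 exceeded Spint2 by 1.153, 1.07 and 2.27 times in the KO libraries, against 1.65, 1.56 and 1.65 times in the control libraries. In CPM, without division by exonic length, Spint2 was equal to or above Spint1 in every library but KO replicate 3, so this order rests on the lengths.

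St14, the gene of matriptase, which both inhibitors restrain, was close to absent from the counts. St14 (ENSMUSG00000031995, chromosome 9, 31089402 to 31131853, minus strand) had 5, 2 and 1 counts in the KO libraries, against 0, 0 and 0 in the control libraries, and was not tested. With 3 counts over the control group as the limit that a count of 0 allows (0.0557 CPM), the KO level was 2.64-fold above it. This figure takes the KO counts as exact, so it is not a lower bound on the ratio. Prss8, the gene of prostasin, another protease restrained by these inhibitors, had 4 counts over the KO libraries and 1 over the control libraries. Counts of at least 1 were found for 19943, 19518 and 20085 genes in the KO libraries, against 19320, 18949 and 19073 in the control libraries, and the part of this difference in the low counts of Krt7 and St14 was not tested.

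Sprr1a, a small proline-rich protein that is cross-linked into the cornified envelope of keratinocytes, had the largest change of the 7 tested genes. Sprr1a (ENSMUSG00000050359, chromosome 3, 92483952 to 92485895, minus strand) stood at 4.41, 4.88 and 8.19 CPM in the KO libraries, against 1.77, 1.17 and 2.35 CPM in the control libraries. Every KO library was above every control library, and the pair ratios were 1.32, 2.06 and 1.80 on the log2 scale. It rose 3.28-fold in the paired edgeR test (log2 change 1.71 ± 0.20 SE, adjusted p = 0.0155), and had an adjusted p of 0.157 without pairing and 0.000502 in DESeq2 without pairing.

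The other 14 Sprr genes in the table, which lie with Sprr1a in the epidermal differentiation complex, did not share its level. Of them, 9 had 0 counts in all libraries, and together they had 23 counts over the KO libraries and 10 over the control libraries, beside 317 and 95 for Sprr1a. Sprr1b, a close relative, had 9 counts over the KO libraries and 3 over the control libraries, and reads that match several Sprr genes may have been split or left out.

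The adhesion genes that define an epithelial cell stayed at or near the floor. Epcam (ENSMUSG00000045394, chromosome 17, 87635979 to 87651129), a surface adhesion molecule of epithelia, stood at 0.33, 0.78 and 0.60 CPM in the KO libraries, against 0.55, 0.61 and 0.45 CPM in the control libraries. The groups overlapped, and the paired log2 change was 0.07 ± 0.41 (SE, edgeR adjusted p = 0.952), so that a difference was not detectable at this depth, with 31 counts over the KO libraries and 29 over the control libraries. Cdh1 (ENSMUSG00000000303, chromosome 8, 106603351 to 106670246) had 1, 5 and 1 counts in the KO libraries, against 4, 2 and 0 in the control libraries. The summed Cdh1 counts of 7 and 6 gave a ratio of 1.16 (95% exact interval 0.332 to 4.16, counting error only).

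**Figure D3:**
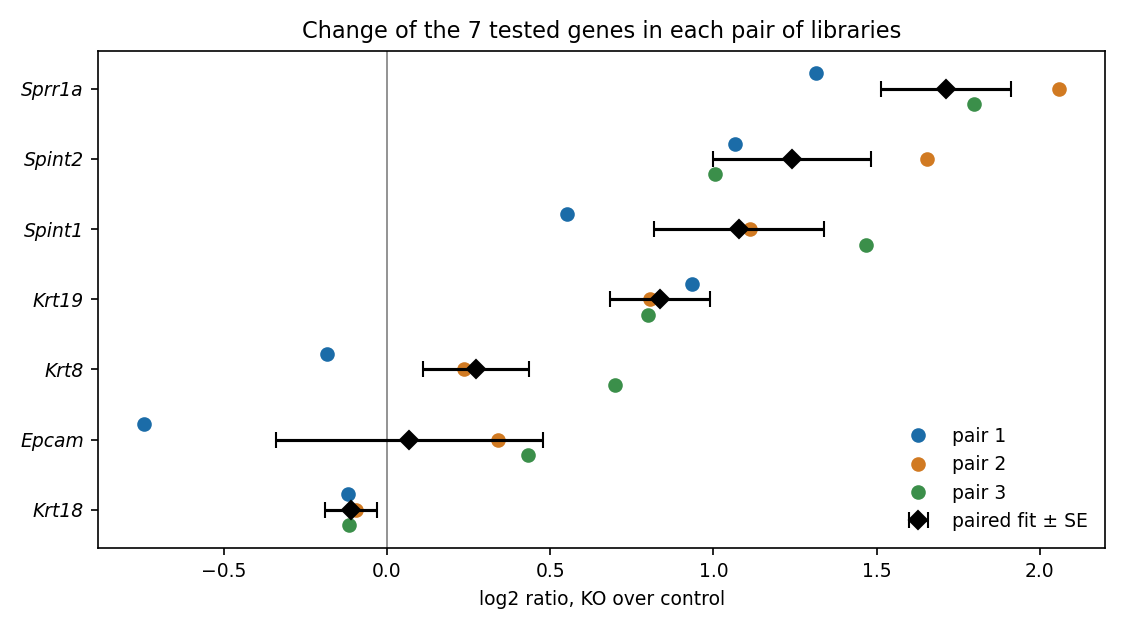
Log2 ratio of KO over control CPM for the 7 tested epithelial genes, as circles for pairs 1, 2 and 3 and as a diamond with its SE for the paired edgeR fit. Sprr1a, Spint2, Spint1 and Krt19 lay above 0 in all 3 pairs, Krt18 lay just below 0 in all 3, and Krt8 and Epcam were below 0 in pair 1 only.

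In all, 4 of the 7 tested genes were higher in the KO library of all 3 pairs, beside 19.9% of all genes tested. Spint1, Spint2 and Sprr1a varied together over the 6 libraries, with Pearson's r of 0.95 for Spint1 with Sprr1a, 0.90 for Spint2 with Sprr1a and 0.83 for Spint1 with Spint2. Krt18 varied apart from them, with r of 0.09 with Sprr1a and -0.01 with Spint2, and closer to Krt8 (r = 0.71) and Krt19 (r = 0.67). These are descriptions over 6 libraries that share their group and replicate number. The genes whose log2 CPM was most like the mean standardised profile of the 7 tested genes were Ehd4, an endosomal trafficking protein (r = 0.995), Psme2, a subunit of the proteasome activator PA28 (r = 0.995), Pvr, the poliovirus receptor (r = 0.992), Npdc1 (r = 0.989) and the zinc finger gene Zbtb4 (r = 0.986). Ehd4 averaged 192.4 ± 52.2 CPM in the KO libraries and 140.9 ± 21.99 CPM in the control libraries (SD, n = 3), and it was the 1 of these 5 genes called in the paired edgeR test (adjusted p = 0.0419). The profile they were picked to match was higher in the KO library of all 3 pairs, so a rise among them follows in part from that choice.

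In the paired edgeR test 0 to 2 genes were called in each of the other epithelial gene lists. Over all genes tested, 1.43% were called higher and 0.851% lower. The lists were also chosen with earlier results known, so their counts and medians describe them and do not test them. Without pairing edgeR called 0 genes in each list. The genes called with pairing had unpaired adjusted p of 0.180 (Dsp), 0.328 (Plat), 0.346 (Prss22), 0.380 (F11r), 0.450 (Krt80) and 0.483 (Krt12). Of 45 other keratin genes in the table, 5 were tested, and 1 rose and 1 fell in the paired edgeR test. The one that rose was Krt80, a type II keratin, at 22.1, 32.7 and 18.97 CPM in the KO libraries, against 11.3, 21.4 and 15.6 CPM in the control libraries (adjusted p = 0.0485). The one that fell was Krt12, known as a keratin of the corneal epithelium, to 0.528 of its control level (adjusted p = 0.0364), but an opposite-strand gene overlaps 54.4% of its exonic bases, so its counts are uncertain. Krt13, also named by rule, averaged 0.73 CPM in the KO libraries and 0.45 CPM in the control libraries (adjusted p = 0.405). The median log2 change of the 5 was -0.21.

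Of 25 pericellular proteases and related genes, 8 were tested, and 2 rose and 0 fell in the paired test, beside 1.43% and 0.851% over all genes. Prss22, a tryptase-like serine protease, rose 1.89-fold with 3.41, 4.16 and 5.72 CPM in the KO libraries, against 1.66, 2.18 and 3.25 CPM in the control libraries (edgeR adjusted p = 0.0363). Plat, the gene of tissue plasminogen activator, rose 1.37-fold (adjusted p = 0.0397), while the urokinase gene Plau was at 0.815 of its control level (adjusted p = 0.0906). The median log2 change of the 8 was 0.05, near that of all genes.

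Of 28 genes of tight junctions, adherens junctions and polarity, 13 were tested, and 1 rose and 0 fell, beside 1.43% and 0.851% over all genes. F11r, which encodes the junctional adhesion molecule JAM-A, rose 1.53-fold, with 9.80, 9.44 and 14.2 CPM in the KO libraries, against 5.75, 7.26 and 8.80 CPM in the control libraries (paired edgeR adjusted p = 0.0487). Cgn, the gene of cingulin, was at 1.84 times its control level (adjusted p = 0.104). Ctnnd1, the gene of a cadherin-binding catenin, was at 1.29 times (adjusted p = 0.106), with 61.2% of its exonic bases overlapped by other genes. The median log2 change of the 13 was 0.21, beside -0.00057 over all genes tested, with 11 of the 13 above 0. In 3 of the 13 every KO library lay above every control library, and in 1, Ocln, every KO library lay below (7.49% and 7.77% over all genes). Ocln stood at 0.551, 0.389 and 0.660 CPM in the KO libraries, against 0.664, 0.837 and 0.729 CPM in the control libraries (paired edgeR adjusted p = 0.548). Among 14 desmosomal genes, 7 were tested and 1, the plaque gene Dsp, rose 1.75-fold (adjusted p = 0.0203), with Jup at an adjusted p of 0.347 and Pkp3 at 0.241.

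Transcription and splicing factors of epithelia were mostly at the floor: of 20, 3 had 0 counts and 13 more did not pass the low-count filter, and 0 of the 4 tested passed the paired test. Esrp2, an epithelial splicing regulator, stood at 0.61, 0.999 and 1.21 CPM in the KO libraries, against 0.28, 0.28 and 0.50 CPM in the control libraries, with no overlap and an adjusted p of 0.0858 in edgeR. Its paralog Esrp1 had 1 count over the KO libraries and 0 over the control libraries, and Grhl2 had 10 and 4. Of the untested factors with counts, Tfap2c (0 and 4) and Ehf (0 and 1) went the other way, and Trp63 was equal at 2 and 2. Klf4 and Klf5, zinc finger factors that mesenchymal cells also express, had adjusted p-values of 0.776 and 0.268. Tfap2a, also tested, averaged 31.6 CPM in the KO libraries and 32.0 CPM in the control libraries (paired edgeR adjusted p = 0.966).

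Repressors of epithelial genes and factors related to them were mostly abundant in both groups. Of 14 listed, 13 were tested and 0 passed the paired edgeR test. Their median log2 change was -0.07, beside -0.00057 over all genes tested, with 11 of the 13 below 0. Those below 0 include Id1, Id2 and Id3, which are not themselves such repressors. Twist1 averaged 82.3 ± 5.03 CPM in the KO libraries and 92.9 ± 5.61 CPM in the control libraries (SD, n = 3, adjusted p = 0.227), with every KO library below every control library. Tcf3 was at 0.869 of its control level (adjusted p = 0.201) and Id3 at 0.812 (adjusted p = 0.197).

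Of the 33 cornified envelope genes besides Sprr1a, 17 had 0 counts in all libraries and 3 were tested, Tchh, Ppl and Cdsn, of which 0 passed (paired edgeR adjusted p = 0.500, 0.888 and 0.814). Of 17 other epithelial surface genes, 7 were tested and 0 passed. Among them Cdh17, a cadherin of intestinal epithelium, stood at 3.91, 2.94 and 3.30 CPM in the KO libraries, against 2.21, 1.90 and 1.74 CPM in the control libraries, with an adjusted p of 0.0654. Ceacam1 and Plet1 had adjusted p-values of 0.304 and 0.422.

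**Figure D4:**
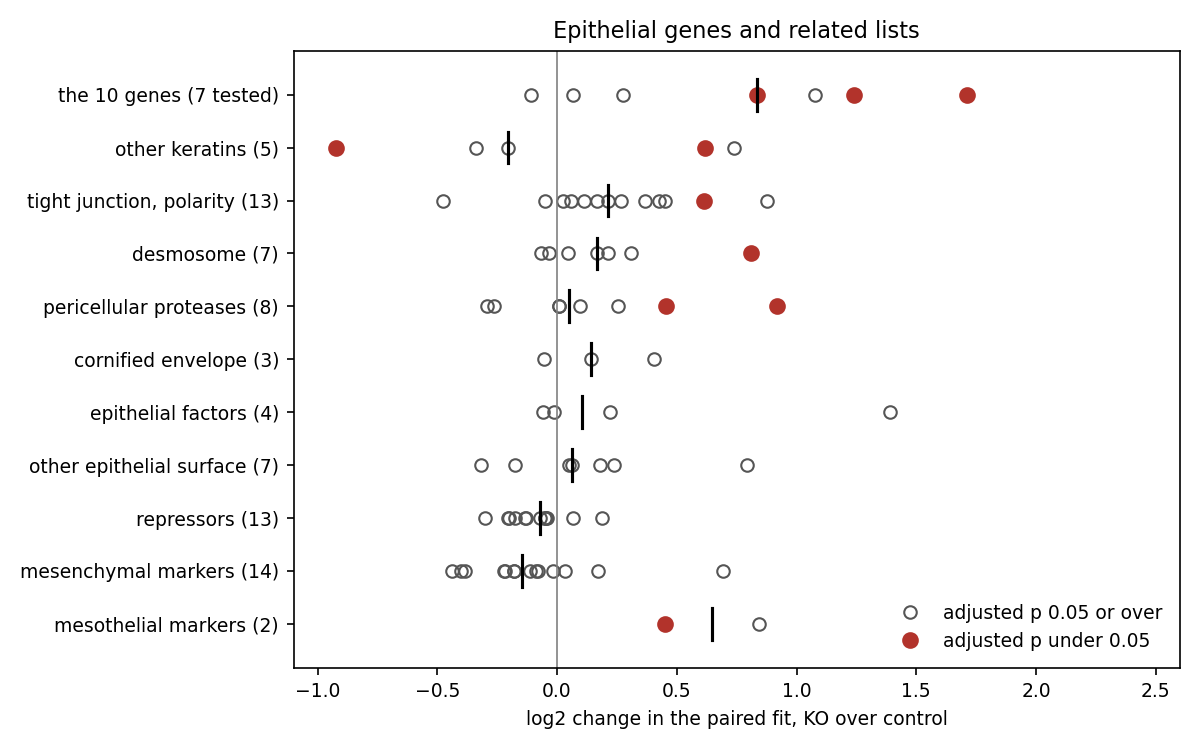
Log2 change, KO over control, of every tested gene in the paired edgeR fit for the 10 epithelial genes and related lists, with the number tested in brackets, filled points for adjusted p under 0.05 and a bar at each median. The members called were Sprr1a, Spint2 and Krt19, and 1 or 2 genes were called in each of 5 of the 10 other lists shown. Over all genes tested, 1.43% were called higher and 0.851% lower.

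The labelled cell type was checked against markers. All 16 mesenchymal markers had counts, 14 were tested, and the list summed to between 7820 and 9163 CPM in the KO libraries, against 9191 to 9541 CPM in the control libraries. Vim alone averaged 5429 of the 8306 CPM of this sum in the KO libraries and 6146 of the 9363 CPM in the control libraries. Its groups overlapped, with 5824 CPM in KO replicate 1 and 5642 CPM in control replicate 1 (paired edgeR adjusted p = 0.363). None of the 14 passed the paired edgeR test, with the collagen gene Col3a1 at 0.767 of its control level (adjusted p = 0.0561), S100a4 at 0.739 (adjusted p = 0.0574) and the proteoglycan gene Dcn at 1.62 times (adjusted p = 0.0566). Simple keratins are also markers of mesothelium. Of 8 mesothelial markers, Wt1 and Gpm6a had 0 counts, Upk3b and Lrrn4 had 1 count each, in the KO libraries, and 2 were tested: Msln, the gene of mesothelin, at 51.2, 60.6 and 75.8 CPM in the KO libraries, against 35.4, 51.2 and 50.8 CPM in the control libraries (adjusted p = 0.0451), and Bnc1 (adjusted p = 0.0670). The summed mesothelial markers lay between 55.7 and 79.6 CPM in the KO libraries, against 37.1 to 54.3 CPM in the control libraries. Msln averaged 62.5 of the 66.9 CPM of this sum in the KO libraries and 45.8 of the 48.2 CPM in the control libraries. Its lowest KO library and highest control library were both near 51.2 CPM. Upk1b had 2 counts over each group, and Muc16 had 1 over the KO libraries and 2 over the control libraries. The share of counts from the mitochondrial genome was 3.71% ± 0.22 in the KO libraries and 2.80% ± 0.28 in the control libraries (SD, n = 3). Of the mesothelial markers only Msln passed the paired test, and without pairing it did not (edgeR adjusted p = 0.434). The part of the summed mesothelial markers, mostly Msln, and of the mitochondrial share in the rise of Sprr1a, Spint2 and Krt19 was not tested. Both were higher in every KO library than in any control library. In bulk RNA, more cells that express a gene and more RNA of it per cell cannot be told apart.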

How the data were processed

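Transcripts of cultured sarcoma cells were counted in 6 RNA-seq libraries. The authors deposited raw counts of reads for each Ensembl gene, with no normalization. Tools named in the submitters' processing notes are STAR, featureCounts and DESeq, and the build is mm10. Their versions, the annotation, the strand setting and the handling of multiply mapped reads are not stated there. Groups and replicate numbers came from the sample titles. Symbols, positions and exonic lengths came from GENCODE M21 (GRCm38, the assembly mm10 names), which matched 55230 of 55471 identifiers, and promoters came from RefSeq.

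Differences were tested with edgeR 4.0.16 in R 4.3.3, using TMM scaling, filterByExpr (minimum count 10) and the two-sided quasi-likelihood test of KO against control, without pairing as the main fit and with the replicate number as a block as its alternative, adjusted by Benjamini-Hochberg over 13044 genes. The SE of a log2 change is its size divided by the square root of F. DESeq2 1.42.0, limma 3.58.1 (voom), other scalings and filters, and fits without single libraries or pairs were alternatives. The numbers were taken as pairs because deviations from the group means correlated at 0.15, 0.46 and 0.38 for same-numbered libraries, all over the limit of 0.1. Libraries of unlike number correlated at -0.45 to 0.053, with 0.053 for KO 1 with control 2 and 0.039 for KO 3 with control 1. Deviations within a group sum to 0, which lowers the values of unlike numbers, so the correlations alone do not establish pairing, least of all for replicate 1. The titles give numbers without saying what they mark. The fit steps were tested on simulated data. The genes and lists were chosen with earlier results of these data known. Genes named were all 10 members, the tested genes of each list with the lowest unadjusted p in the paired test (up to 3), and the 5 annotated genes of at least 5 CPM most like the members' mean profile; other genes named were chosen after their values were seen.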

Additional observations from a re-analysis of the deposited data

How the results depend on the processing

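Without pairing, edgeR called 0 of the 7 tested epithelial genes with either scaling, and 0 of the 3 left to test with a minimum mean of 5 CPM; DESeq2 and the fit with no filter on low counts each called 1 higher, Sprr1a. With the replicate block edgeR called 3 higher and 0 lower; added after seeing the data, the block with limma-voom or with DESeq2's size factors also called 3, with no filter 4, and with DESeq2 or a minimum mean of 5 CPM 1 each (Sprr1a, and Krt19 of the 3 genes left to test). No alternative called any of them lower. Leaving out single libraries without pairing gave 0 calls among them; leaving out pairs under the block gave between 0 and 4. Over all genes, calls higher and lower were 0 and 0 in the main fit, 187 and 111 with the replicate block, 62 and 12 with no filter, 93 and 40 in DESeq2, 157 and 157 in DESeq2 with the block, 194 and 127 in limma-voom with the block, 193 and 124 with DESeq2's size factors and the block, 124 and 83 with a minimum mean of 5 CPM and the block, and 411 and 356 with no filter and the block. Without single libraries they ranged from 0 to 30 higher and 0 to 1 lower (30 and 1 without KO replicate 1), and without single pairs under the block from 0 to 507 and 0 to 207 (507 and 207 without pair 1, 140 and 54 without pair 2, 0 and 0 without pair 3).

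Sprr1a, Spint1, Spint2, Krt19 and Krt8 kept their direction under every alternative that tested them, with log2 changes of 1.39 to 1.98 for Sprr1a, 1.05 to 1.36 for Spint2, 0.73 to 1.35 for Spint1, 0.52 to 1.12 for Krt19 and 0.04 to 0.65 for Krt8. Krt18 turned to 0.10 without KO replicate 1 and 0.09 without control replicate 3, within a range of -0.31 to 0.10. Epcam turned to -0.19 without KO replicate 2 (0.36 without KO replicate 1), -0.03 without control replicate 3 and -0.11 without pair 3 under the block, up to 0.38. The cause was not tested. Epcam, Krt7, Cdh1 and St14 held so few reads that depth limits what can be said of them.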

Other observations

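Markers of blood and vessel cells were mostly at the floor in this line. Of 10 immune markers, Adgre1, Cd3e, Nkg7 and Tyrobp had 0 counts in every library, and 1, Cd68, a lysosomal protein that is not confined to macrophages, was tested (9.92 ± 3.40 CPM in the KO libraries and 7.99 ± 0.84 CPM in the control libraries, SD, n = 3, paired edgeR adjusted p = 0.383). Csf1r, the receptor of the macrophage growth factor CSF1, had 47 counts over the KO libraries and 10 over the control libraries, and did not pass the low-count filter, with 1.10 and 1.28 CPM in KO replicates 1 and 2 and at most 0.335 CPM in the other libraries. Of 8 endothelial markers, Cldn5 had 0 counts and Cdh5, the gene of VE-cadherin, stood at 1.99 ± 0.28 CPM in the KO libraries and 1.395 ± 0.49 CPM in the control libraries (SD, n = 3, adjusted p = 0.382). Kdr had 29 counts over the KO libraries and 10 over the control libraries. Of the other untested endothelial markers with counts, Tie1 had 19 and 8 and Pecam1 had 13 and 9. Esam had 13 and 16, Tek had 1 and 4, and Emcn had 0 and 3. The genes Csf1r and Kdr were named after their values were seen.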
